A study of Mus musculus with 24 samples.

Results

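Livers that lacked Cpt2 in hepatocytes were compared directly with livers that lacked Tsc1 in hepatocytes, gene by gene, without passing through the control group. The comparison used 8 of the 24 RNA-seq libraries of the series, chosen by their genotype labels, 4 of Cpt2 L-/- and 4 of Tsc1 L-/- mice, and all 35275 genes of the count table. Both deletions were made in floxed mice (Tsc1 f/f or Cpt2 f/f) by Cre recombinase under the albumin promoter, which is active in hepatocytes, so the other cells of the liver kept the intact genes. All mice of these groups were males on a C57BL6 background, 8 to 10 weeks old, that had been fasted for 24 h. The 4 control livers, labelled wild type and described in the methods as littermates with floxed Tsc1 and Cpt2 genes, and the 4 Tsc1Cpt2 L-/- livers (DKO), which lacked both genes, entered the same fit and are quoted beside single genes. The 8 remaining libraries, of PPAR-a KO and Cpt2L-/- Ppara KO mice, were used to check the libraries and in an alternative fit.

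Cpt2 encodes carnitine palmitoyltransferase 2, the enzyme of the inner mitochondrial membrane that turns imported long-chain acylcarnitines back into acyl-CoA, so that hepatocytes without it cannot burn long-chain fatty acids or make ketone bodies from them. Tsc1 encodes a subunit of the complex that holds the GTPase Rheb in its inactive form, and its loss leaves the kinase complex mTORC1 active when it would normally fall silent in fasting. In the fasted liver, fatty acids that arrive from adipose tissue activate the nuclear receptor PPAR-a, which induces genes of mitochondrial and peroxisomal fatty acid oxidation, ketogenesis and lipid droplets. mTORC1 promotes ribosome production and lipid synthesis and acts on the transcription factors of lysosomal genes. The comparison asks how the expression program of a liver blocked in fatty acid oxidation differs from that of a liver with unrestrained mTORC1, both in the fasted state.

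Total counts were 15974454 to 18461578 in the Cpt2 L-/- libraries and 14763846 to 17501550 in the Tsc1 L-/- libraries, so that 3 counts, taken here as the floor of detection in a library, equalled 0.162 to 0.207 CPM (read counts scaled for library size, after TMM normalization). The replicates are separate libraries by their labels, which do not say that each came from its own mouse, and all p-values measure the spread between these libraries. Hepatocyte RNA dominated both groups, with albumin (Alb) at 16590.0, 31118, 37412 and 30161 CPM in the Cpt2 L-/- libraries and 43931, 35225, 20205 and 22590.0 CPM in the Tsc1 L-/- libraries. In bulk liver RNA, fewer cells of a type and less RNA per cell cannot be told apart. The targeted genes were examined first. Tsc1 (ENSMUSG00000026812, chr2:28641228-28691167 in GRCm38) had 298 to 422 counts in the libraries labelled Tsc1 L-/- and 637 to 906 in those labelled Cpt2 L-/-, without overlap (log2 fold change 0.96, standard error 0.13, adjusted p = 1.84e-05). Cpt2 had 1359 to 1745 counts in the libraries labelled Cpt2 L-/- and 1752 to 2766 in those labelled Tsc1 L-/-. A count over a whole gene cannot show that some of its exons are missing, and the Cpt2 counts are therefore no check of the Cpt2 label.

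Libraries differed in 2 further ways that touch the results. First, 5 genes (Cd1d2, Rps3a3, Hist1h2bq, Gm9855 and Hist1h2al) were near 0 in all 12 libraries of Cpt2 L-/-, PPAR-a KO and Cpt2L-/- Ppara KO mice and were present in all 12 libraries of control, Tsc1 L-/- and DKO mice, and no gene showed the reverse pattern. Cd1d2, which encodes a lipid-presenting CD1 molecule, had 1 to 13 counts in the first set and 211 to 1021 in the second, and Rps3a3 had 3 to 48 counts against 549 to 1798. These genes were chosen after their values were seen, as those with at least 10 counts in every library of 1 set and a gap of more than 5-fold between the sets. The direct comparison crosses these 2 sets of libraries, so what separates the sets cannot be told apart from the genotypes in it. For this reason the contrast of DKO with Tsc1 L-/- livers, whose libraries lie in the same set, is quoted beside the leading genes. It shares the Tsc1 L-/- libraries with the direct comparison and is no independent evidence. Comparisons of Cpt2 L-/- with control livers also cross the 2 sets, and those of Tsc1 L-/- with control livers do not.

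**Figure D1:**
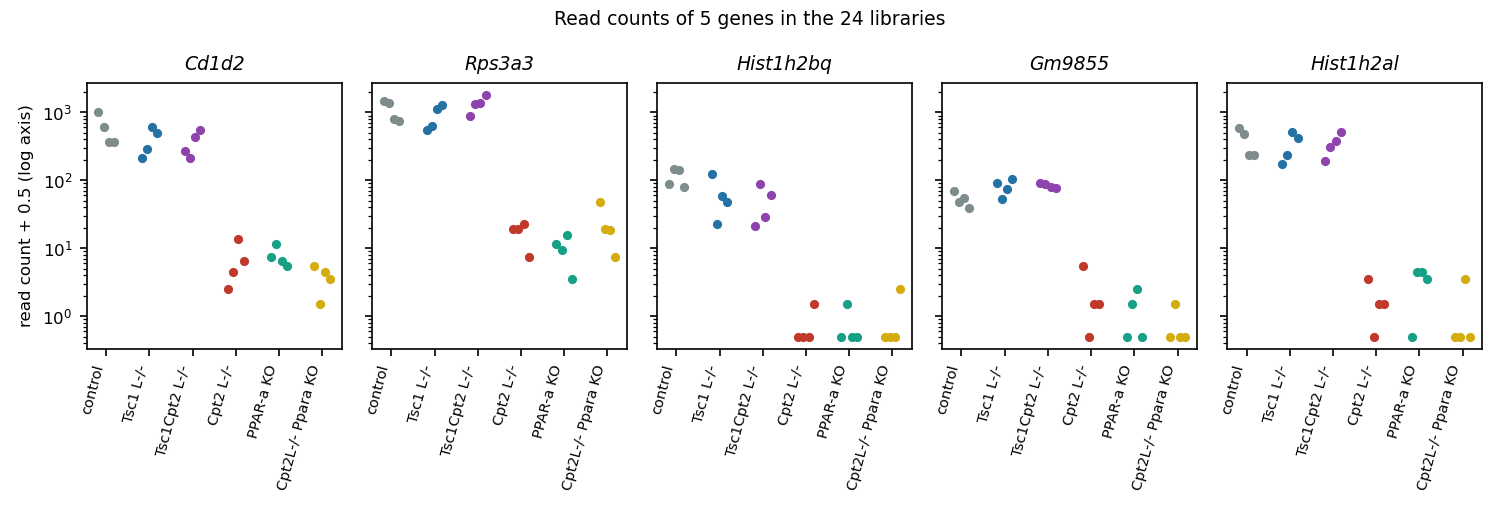
Read counts plus 0.5 (log axis) of 5 genes in the 24 libraries, with 4 points for each of the 6 groups. The 12 libraries of control, Tsc1 L-/- and Tsc1Cpt2 L-/- mice lie above the 12 libraries of Cpt2 L-/-, PPAR-a KO and Cpt2L-/- Ppara KO mice for every gene shown; for Rps3a3 the ranges are 549 to 1798 and 3 to 48 counts.

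Second, Tsc1 L-/- replicate 3 stood apart from the other 3 Tsc1 L-/- libraries. On the second principal component of the 8 libraries, which held 11.99% of the variance, it lay at -48.4, and the other 7 libraries lay between -11.1 and 31.5. Thrsp, a lipogenic gene that rises with feeding, was at 7.54, 9.54, 565 and 15.1 CPM in Tsc1 L-/- replicates 1 to 4, and Srebf1, the transcription factor of fatty acid synthesis, at 38.3, 23.8, 338 and 41.5 CPM. The same library was the lowest of its group for several genes of peroxisomal and microsomal fatty acid oxidation, with Cyp4a14 at 5889.7, 4290.4, 524 and 5098 CPM and Ehhadh at 1830.5, 1106, 145 and 724 CPM. Over all genes with a mean of at least 1 CPM in Tsc1 L-/- livers, replicate 3 was the highest and apart from the other 3 for 222 and the lowest for 77 (2.46% of 12168 genes), and replicate 1 nearly as often, for 181 and 80 (2.15% of the genes), against 1.23% for replicate 2 and 0.592% for replicate 4. Values with and without replicate 3, or another library, are given where a result rests on it.

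**Figure D2:**
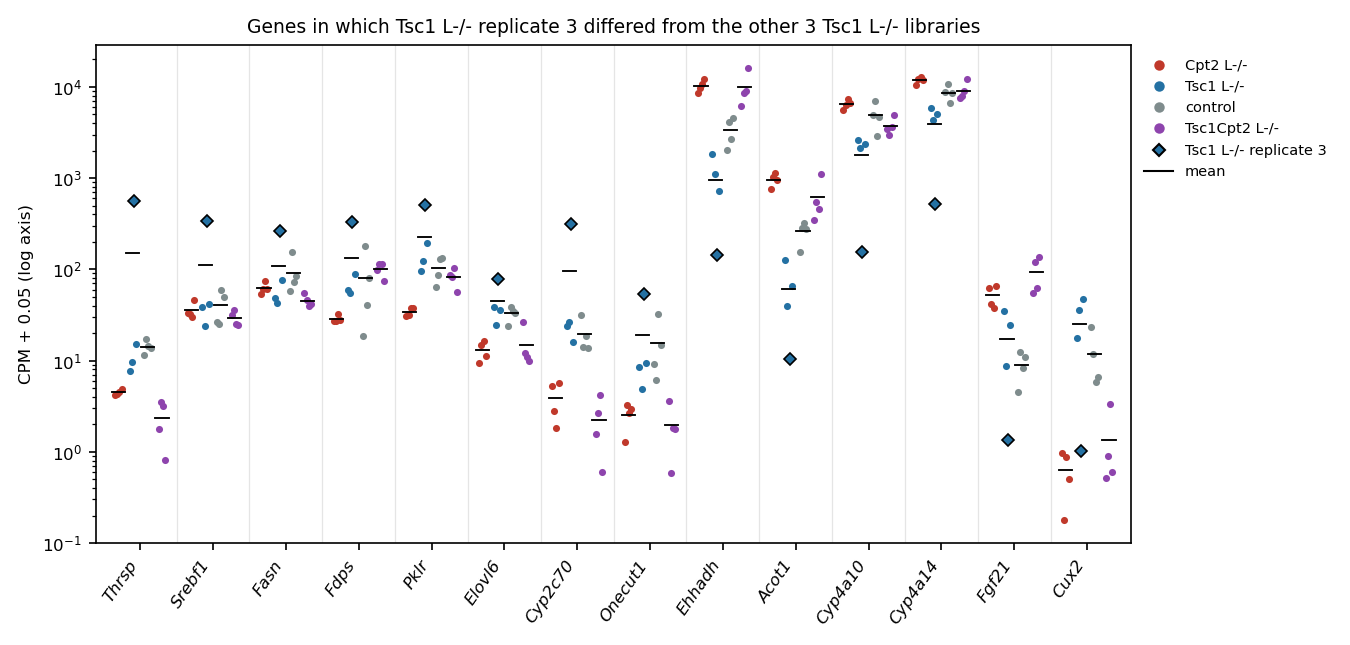
CPM plus 0.05 (log axis) of 14 genes in the 16 libraries of the 4 genotypes; points are libraries, bars are group means, and the outlined diamond is Tsc1 L-/- replicate 3. The genes were chosen after their values were seen. For Thrsp, this library lies at 565 CPM and the other 3 Tsc1 L-/- libraries between 7.54 and 15.1 CPM, and for Cyp4a14 it lies at 524 CPM and the others between 4290 and 5890 CPM.

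Across the 13641 genes that passed the filter on low counts, 5045 (37.0%) differed between Cpt2 L-/- and Tsc1 L-/- livers at an adjusted p under 0.05 in edgeR's quasi-likelihood test, 2450 (18.0%) higher and 2595 (19.0%) lower in Cpt2 L-/- livers. With a difference of at least 2-fold as a further condition, 781 (5.73%) were higher and 1064 (7.80%) lower. The median log2 fold change over all tested genes was -0.01, with quartiles at -0.41 and 0.36. The 4 libraries of each genotype did not overlap for 2110 genes (15.5%) that were higher in Cpt2 L-/- livers and 2232 (16.4%) that were lower. The first principal component, which held 55.02% of the variance, placed the Cpt2 L-/- libraries between 42.3 and 54.2 and the Tsc1 L-/- libraries between -65.3 and -41.7. The mean Euclidean distance between libraries of different genotypes was 115, against 64.0 within Cpt2 L-/- and 80.3 within Tsc1 L-/-. Without Tsc1 L-/- replicate 3, 4459 of 13842 tested genes (32.2%) were called, and 4212 of these were also among the 5045. By the same test, 31.0% of genes differed between Cpt2 L-/- and control livers, with 16.2% higher and 14.9% lower in Cpt2 L-/-. This contrast also crosses the library sets, and those that follow do not. Between Tsc1 L-/- and control livers 6.64% differed, with 4.16% higher and 2.48% lower in Tsc1 L-/-. Between DKO and Tsc1 L-/- livers 32.2% differed, with 16.9% higher and 15.2% lower in DKO.

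The genes with the largest rise in Cpt2 L-/- livers included genes of fuel choice, fatty acid binding and lipid droplets, and several were at or near 0 in Tsc1 L-/- livers. Pdk4, the kinase that shuts off pyruvate dehydrogenase and spares glucose, was at 519, 359, 658 and 659 CPM in the Cpt2 L-/- libraries and 8.22, 8.78, 4.57 and 15.2 CPM in the Tsc1 L-/- libraries, 59.6-fold higher (log2 fold change 5.90, standard error 0.54, adjusted p = 2.62e-06). Control livers had 17.4 ± 5.12 CPM (SD, n = 4), close to the Tsc1 L-/- level. Cidec, a lipid droplet protein that promotes droplet growth, was at 595, 681, 366 and 580.4 CPM against 22.2, 49.01, 4.32 and 43.7 CPM (log2 fold change 4.22, standard error 0.58, adjusted p = 8.6e-05), and its lowest value was that of Tsc1 L-/- replicate 3. Without that library the log2 fold change was 3.86.

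Fabp3, a fatty acid binding protein known from heart muscle, was at 6.22, 6.15, 8.53 and 4.25 CPM in the Cpt2 L-/- libraries and 0, 0, 0.322 and 0.0633 CPM in the Tsc1 L-/- libraries, with no count in 2 of them. Its log2 fold change was 5.92, and 7.76 without Tsc1 L-/- replicate 3. Rbm24, an RNA-binding protein known from muscle, was at 5.79, 4.95, 3.198 and 8.16 CPM and at or under the floor in every Tsc1 L-/- library, which makes it at least 28.5-fold higher against 3 counts per library. The water and glycerol channel Aqp3 was likewise at 3.57, 5.2005, 10.1 and 2.07 CPM and at the floor in Tsc1 L-/- livers, at least 27.1-fold higher. The long-chain fatty acid elongase Elovl7 was at 23.3, 17.7, 15.7 and 15.6 CPM against 0.9197, 0.622, 1.095 and 0.3797 CPM (4.57 ± 0.33 on the log2 scale, with the standard error). A lack of overlap between the libraries of the 2 genotypes was a condition for choosing these genes and is no further result.

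The beta-tubulins Tubb2a and Tubb2b rose together, Tubb2a at 601, 557, 314 and 620.5 CPM against 17.6, 40.6, 6.89 and 44.9 CPM and Tubb2b at 9.58, 6.02, 4.501 and 7.76 CPM against 0.0613, 0.346, 0.129 and 0.127 CPM. Reads of such close paralogs can be split between them in counting, and the log2 fold changes, 4.25 ± 0.51 and 5.37 ± 0.59, are read as those of the pair. That of Tubb2b was 5.96 without Tsc1 L-/- replicate 2. Lamb3, a laminin chain of epithelial basement membranes, was at 53.3, 165, 158 and 97.98 CPM against 7.11, 1.18, 2.19 and 3.92 CPM. Control livers, at 25.2 ± 12.1 CPM (SD, n = 4), lay between the 2 genotypes for Lamb3. The carbonyl reductase Cbr3 (4.21 ± 0.44), the non-coding transcript Gm15441 (7.07 ± 0.73) and the membrane protein Tmem154 (4.20 ± 0.53) completed the 12. The log2 fold change of Gm15441 was 8.01 without Tsc1 L-/- replicate 4 and that of Tmem154 5.33 without replicate 3. In the contrast of DKO with Tsc1 L-/- livers the log2 fold changes of the 12 genes were 1.73 (Lamb3) or more.

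Among the 12 largest falls, 5 had the pattern of the library sets or lay at 0 in every Cpt2 L-/- library. Hist1h2al, Cd1d2 and Rps3a3 are among the 5 genes described above, and H2-Ea-ps and Gm11127 had no count in any library of the set that holds Cpt2 L-/-. H2-Ea-ps and Gm11127 also had no count in control replicate 4 and DKO replicate 3, which belong to the other set. Gm8893 ranged from 142 to 10446 counts within the Tsc1 L-/- libraries alone. The others were high in Tsc1 L-/- livers. Clec2h, a C-type lectin, was at 0.216, 0.444, 0.651 and 0.168 CPM in the Cpt2 L-/- libraries and 63.3, 67.2, 51.4 and 74.7 CPM in the Tsc1 L-/- libraries (log2 fold change -7.43, standard error 0.43, adjusted p = 2.41e-08), with control at 5.19 ± 2.49 CPM (SD, n = 4). Pde6c, a cone-type phosphodiesterase, was at the floor in Cpt2 L-/- livers and at 4.599, 19.1, 4.96 and 11.5 CPM in Tsc1 L-/- livers, at least 57.6-fold lower. Gdpd3, a glycerophosphodiesterase that makes lysophospholipids, was at 0.162, 0.254, 0.178 and 0 CPM against 6.74, 8.16, 12.8 and 8.61 CPM (log2 fold change -5.89, standard error 0.44, adjusted p = 8.27e-08), and control livers, at 0.217 ± 0.1004 CPM (SD, n = 4), lay near the Cpt2 L-/- level.

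Dsg1c, a desmosomal cadherin, was at 0.0541, 0.317, 0.474 and 0.447 CPM against 15.5, 14.999, 52.97 and 11.6 CPM (-6.18 ± 0.60, adjusted p = 2.63e-06), with a log2 fold change of -5.42 without Tsc1 L-/- replicate 3. The imprinted non-coding RNA Rian was at 0.108, 0.254, 0.0592 and 0.0559 CPM against 1.04, 3.802, 19.1 and 8.61 CPM, and its values in Tsc1 L-/- livers spread widely. Ankrd55 varied more widely, at 0.491, 24.3, 62.5 and 117 CPM in Tsc1 L-/- livers, so that its lowest Tsc1 L-/- library lay just above the highest Cpt2 L-/- library, at 0.487 CPM. In the contrast of DKO with Tsc1 L-/- livers, the log2 fold changes were -4.48 for Clec2h, -4.07 for Pde6c, -4.26 for Dsg1c and -2.94 for Rian. Those of Gdpd3, -0.09 (adjusted p = 0.844), Ankrd55, -2.52 (adjusted p = 0.0799), and Cd1d2, -0.27 (adjusted p = 0.686), did not pass the test. Counts of the remaining leading falls overlapped between DKO and Tsc1 L-/- livers. Hist1h2al had 192 to 518 and 174 to 506 counts, and Rps3a3 had 881 to 1798 and 549 to 1267. Gm8893 had 2903 to 4180 and 142 to 10446 counts. For H2-Ea-ps the counts were 0 to 109 and 19 to 132, and for Gm11127 0 to 278 and 116 to 214.

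**Figure D3:**
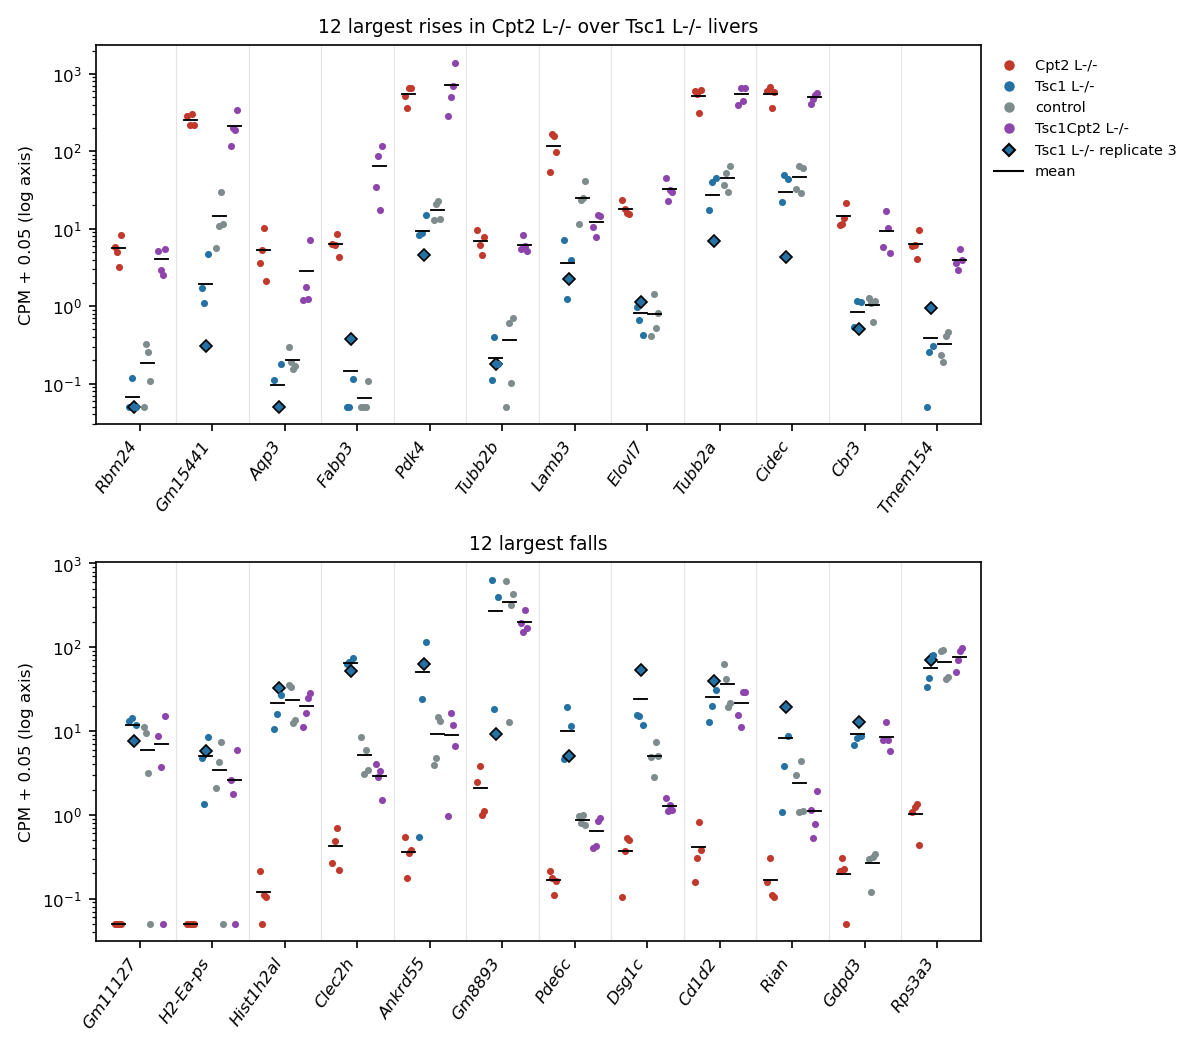
CPM plus 0.05 (log axis) of the 12 genes with the largest rise (top) and the 12 with the largest fall (bottom) in Cpt2 L-/- over Tsc1 L-/- livers, in the 16 libraries of 4 genotypes; points are libraries, bars are group means, and the outlined diamond is Tsc1 L-/- replicate 3. Values compare libraries within a gene, not genes with each other. The genes were chosen among those in which no Cpt2 L-/- library overlaps a Tsc1 L-/- library. For Pdk4 the ranges are 359 to 659 and 4.57 to 15.2 CPM.

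Genes of mitochondrial beta-oxidation stood higher in Cpt2 L-/- livers. In this list 17 of the 27 tested members were called higher in Cpt2 L-/- livers and 3 lower, beside 18.0% and 19.0% of all genes tested. The counts of every list below are to be read beside these shares. The median log2 fold change was 0.78 (0.66 without Tsc1 L-/- replicate 3) beside -0.01 for all genes. Cpt1a, the entry step that the absent Cpt2 follows, was at 1272, 1813, 1726 and 1783 CPM in the Cpt2 L-/- libraries and 1189, 959.6, 686 and 1004 CPM in the Tsc1 L-/- libraries (log2 fold change 0.78, standard error 0.18, adjusted p = 0.00256). The medium-chain and very-long-chain acyl-CoA dehydrogenases Acadm (0.84 ± 0.17) and Acadvl (0.77 ± 0.13) were higher too. The plasma membrane carnitine transporter Slc22a5 rose the most of the list (2.52 ± 0.24), at 174, 209, 229 and 224 CPM against 45.6, 21.9, 26.9 and 51.1 CPM, and the muscle-type isoform Cpt1b (2.30 ± 0.51) and Decr1, which acts on unsaturated fatty acids (1.24 ± 0.16), came next. Those lower in Cpt2 L-/- livers were the medium-chain acyl-CoA synthetases Acsm1 (-1.23 ± 0.23) and Acsm5 (-1.19 ± 0.15) and Acad9 (-0.56 ± 0.11), an assembly factor of respiratory complex I. Without Tsc1 L-/- replicate 1 the count of lower members was 5. Relative to control, the list's median was 0.18 in Cpt2 L-/- and -0.57 in Tsc1 L-/- livers, and in DKO over Tsc1 L-/- livers, which shares libraries with the direct comparison, 15 members were higher and 4 lower (median 0.59).

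Genes of ketone body synthesis, export and use were called in both directions. Of the 9 tested members, 4 were called higher and 2 lower, with a median of 0.47 (0.26 without Tsc1 L-/- replicate 3). Bdh1, which makes beta-hydroxybutyrate, did not pass the test, and the libraries of the 2 genotypes overlapped (0.12 ± 0.21, adjusted p = 0.713). The monocarboxylate transporters Slc16a1 (0.75 ± 0.16) and Slc16a6 (1.10 ± 0.30) were higher in Cpt2 L-/- livers. Bdh2 was lower (-2.68 ± 0.49), as was the ketolytic enzyme Oxct1 (-1.001 ± 0.31), which lost its call without Tsc1 L-/- replicate 1 (adjusted p = 0.118) and in the fit of all 24 libraries (adjusted p = 0.0575).

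In the list of peroxisomal genes, 26 of the 49 tested members were called higher and 8 lower (median 0.34), beside 18.0% and 19.0% of all genes tested. In this list 17 were called higher in the fit of all 24 libraries. Ehhadh, the bifunctional enzyme of peroxisomal beta-oxidation, was at 8581, 9783, 10739 and 12249 CPM in the Cpt2 L-/- libraries and 1830.5, 1106, 145 and 724 CPM in the Tsc1 L-/- libraries (log2 fold change 3.44, standard error 0.58, adjusted p = 0.000321), and stayed called without Tsc1 L-/- replicate 3 (log2 fold change 3.08, adjusted p = 2.39e-05). Pex11a, which drives peroxisome division, was at 623, 604, 691 and 574 CPM against 57.5, 65.2, 93.3 and 96.5 CPM, 7.98-fold higher. For both genes the libraries did not overlap, and control livers lay between the 2 genotypes, with 3345 ± 1175 CPM of Ehhadh and 204 ± 31.9 CPM of Pex11a (SD, n = 4). The members lower in Cpt2 L-/- livers included Hao1 (-2.34 ± 0.32), which oxidizes glycolate, and the enoyl-CoA reductase Pecr (-1.80 ± 0.27).

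Acyl-CoA thioesterases, which release free fatty acids from CoA, were led by the cytosolic Acot1 and the mitochondrial Acot2. Of 13 tested members 8 were higher and 2 lower (median 0.99). The cytosolic Acot1 was at 753, 1025, 1125 and 947 CPM in the Cpt2 L-/- libraries and 127, 39.3, 10.4 and 66.1 CPM in the Tsc1 L-/- libraries, 15.9-fold higher (log2 fold change 3.99, standard error 0.62, adjusted p = 0.000245), and the mitochondrial Acot2 was at 211, 234, 446 and 489 CPM against 55.6, 5.81, 2.96 and 19.1 CPM (4.04 ± 0.82, adjusted p = 0.00182). These 2 genes are close paralogs whose reads could be split in counting. Without Tsc1 L-/- replicate 3, the lowest library for both, the log2 fold changes were 3.64 and 3.68, and without replicate 1, the highest, they were 4.64 and 5.21. Baat, which conjugates bile acids, was lower in Cpt2 L-/- livers (-1.10 ± 0.14). Of the 14 tested Cyp4 fatty acid hydroxylases, 5 were higher and 3 lower (median 0.07). Cyp4a14 was at 10409, 12344, 12787 and 11915 CPM against 5889.7, 4290.4, 524 and 5098 CPM (log2 fold change 1.59, standard error 0.46, adjusted p = 0.0136), and Cyp4a10 at 5536, 6323, 7405 and 6582 CPM against 2596, 2125, 153 and 2354 CPM. Without Tsc1 L-/- replicate 3 the log2 fold changes of Cyp4a14 and Cyp4a10 were 1.22 and 1.45, with adjusted p = 0.000222 and 0.000208. In a fit of the 8 compared libraries alone neither passed the test and 2 Cyp4 genes were called higher. In the fit of all 24 libraries 3 were called higher, and Cyp4a14 was not (adjusted p = 0.163).

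Lipid droplet and lipolysis genes had the largest median rise of the 47 lists, 1.04, with 19 of 28 tested members called higher in Cpt2 L-/- livers and 0 lower. A single member was called lower when Tsc1 L-/- replicate 1 or 4 was left out, 2 had an unadjusted p under 0.05 in edgeR, and 1 was called by DESeq2 and 0 by limma. Plin2 (ENSMUSG00000028494, chr4:86648386-86670060 in GRCm38), the coat protein of hepatic droplets, was at 3178, 3071, 3010.1 and 3654 CPM in the Cpt2 L-/- libraries and 432, 191, 267 and 459 CPM in the Tsc1 L-/- libraries, 9.57-fold higher (log2 fold change 3.26, standard error 0.27, adjusted p = 1.84e-07). Control livers had 503 ± 100.2 CPM (SD, n = 4). Plin5, which tethers droplets to mitochondria, was at 286, 316, 346 and 328 CPM against 36.2, 42.6, 40.98 and 61.5 CPM (2.81 ± 0.22, adjusted p = 1.25e-07), and Plin4 at 275, 225, 337 and 196 CPM against 16.1, 38.4, 14.3 and 52.3 CPM. In fatty acid uptake, binding and activation, 10 of 22 members were higher and 2 lower (median 0.54), the latter 4 without Tsc1 L-/- replicate 4. The fatty acid translocase Cd36 (141, 131, 305 and 277 against 99.4, 70.6, 41.2 and 41.9 CPM) and the transporter Slc27a1 (91.6, 167, 182 and 106 against 24.6, 15.8, 12.6 and 24.2 CPM) were higher without overlap. Fabp1, the abundant fatty acid binding protein of hepatocytes, did not pass the test (0.55 ± 0.26, adjusted p = 0.105), and did so without Tsc1 L-/- replicate 3 (adjusted p = 0.0231).

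The receptor gene Ppara itself was at 277, 308, 386 and 307 CPM in the Cpt2 L-/- libraries and 200.5, 139.7, 257 and 196 CPM in the Tsc1 L-/- libraries (log2 fold change 0.69, standard error 0.18, adjusted p = 0.00522), without overlap, and its call was lost in the fit of all 24 libraries, which holds the 8 libraries of mice without Ppara. Pparg was higher as well (21.6, 22.01, 21.4 and 27.1 against 7.73, 8.29, 10.8 and 5.89 CPM, 1.496 ± 0.21, adjusted p = 3.54e-05). Over the 45 tested nuclear receptors 9 were higher and 8 lower (median 0.12), near the 18.0% and 19.0% of all genes tested, and without Cpt2 L-/- replicate 1, Cpt2 L-/- replicate 4 or Tsc1 L-/- replicate 3 the lower ones numbered 2, 3 and 4.

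**Figure D4:**
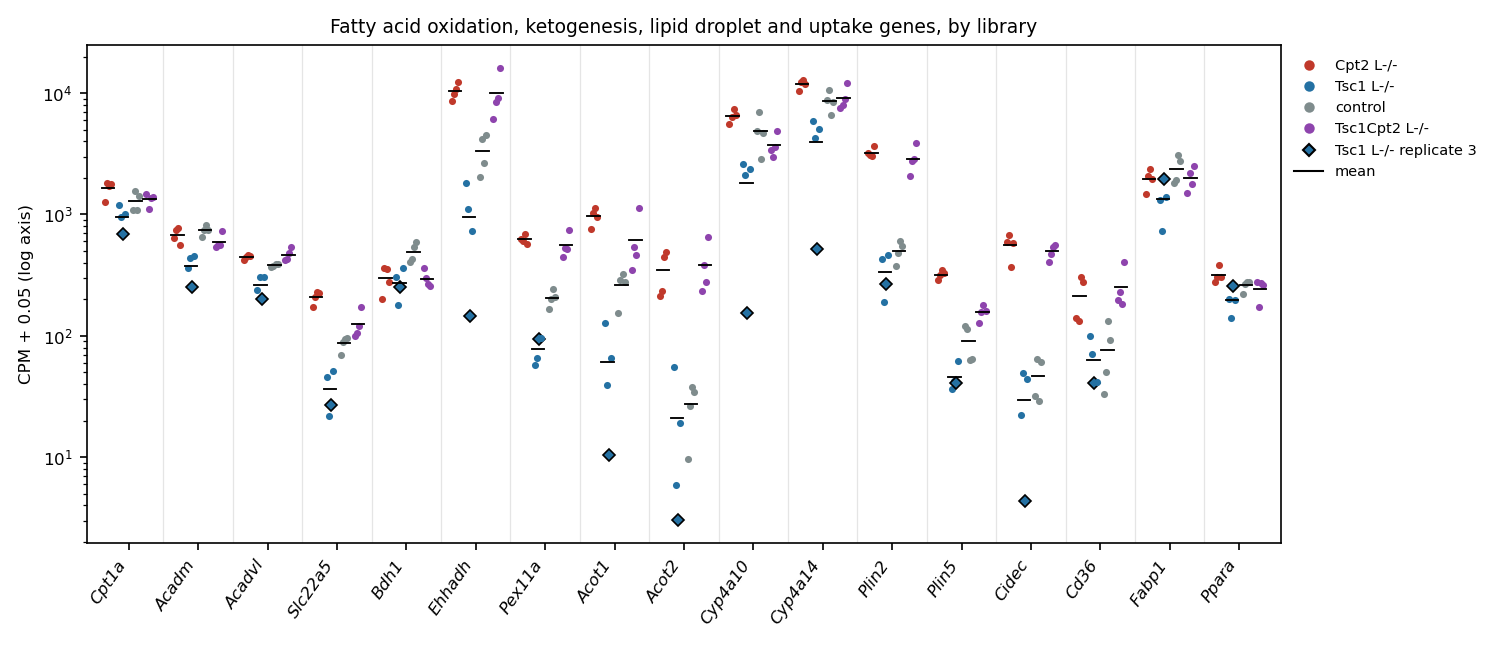
CPM plus 0.05 (log axis) of 17 genes of fatty acid oxidation, ketogenesis, lipid droplets and uptake in the 16 libraries of 4 genotypes; points are libraries, bars are group means, and the outlined diamond is Tsc1 L-/- replicate 3. Plin2 lies between 3010.1 and 3654 CPM in Cpt2 L-/- and between 191 and 459 CPM in Tsc1 L-/- livers, while the Bdh1 and Fabp1 values of the 2 genotypes overlap.

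The start regions of 4 genes are shown because they carry letters of motifs known from the pathways compared: Plin2 and Cpt1a, which rose, and Asns and Fgf21, which are known targets of the stress factor Atf4. The sequences are from RefSeq (GRCm38.p6), 250 bases before to 50 after the start, 5′ to 3′ on the gene's strand, at chr4:86670010-86670309, reverse strand for Plin2, chr19:3323051-3323350, forward strand for Cpt1a, chr7:45615441-45615740, reverse strand for Fgf21 and chr6:7693160-7693459, reverse strand for Asns. Capitals mark matches on either strand to AGGTCA (the unit of nuclear receptor elements), CACGTG (the E-box read by Tfeb and other factors) or TGATGNAA (the composite element read by Atf4).
Plin2: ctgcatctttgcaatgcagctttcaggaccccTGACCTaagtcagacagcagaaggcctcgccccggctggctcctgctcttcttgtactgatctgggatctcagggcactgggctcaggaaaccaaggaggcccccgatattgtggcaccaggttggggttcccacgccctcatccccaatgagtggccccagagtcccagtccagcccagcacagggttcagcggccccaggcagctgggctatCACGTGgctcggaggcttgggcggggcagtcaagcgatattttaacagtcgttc
Cpt1a: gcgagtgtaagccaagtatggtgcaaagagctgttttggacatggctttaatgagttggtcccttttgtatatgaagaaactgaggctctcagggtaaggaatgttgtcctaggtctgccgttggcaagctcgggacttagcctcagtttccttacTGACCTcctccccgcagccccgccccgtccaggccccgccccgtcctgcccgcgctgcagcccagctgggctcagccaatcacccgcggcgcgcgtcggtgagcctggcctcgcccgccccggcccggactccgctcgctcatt
Fgf21: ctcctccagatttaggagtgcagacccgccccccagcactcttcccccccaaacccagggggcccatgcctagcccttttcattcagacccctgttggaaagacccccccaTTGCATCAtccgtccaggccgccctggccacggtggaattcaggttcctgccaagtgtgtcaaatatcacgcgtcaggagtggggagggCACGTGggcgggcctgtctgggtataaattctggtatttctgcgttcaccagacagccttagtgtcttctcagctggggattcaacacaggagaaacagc
Asns: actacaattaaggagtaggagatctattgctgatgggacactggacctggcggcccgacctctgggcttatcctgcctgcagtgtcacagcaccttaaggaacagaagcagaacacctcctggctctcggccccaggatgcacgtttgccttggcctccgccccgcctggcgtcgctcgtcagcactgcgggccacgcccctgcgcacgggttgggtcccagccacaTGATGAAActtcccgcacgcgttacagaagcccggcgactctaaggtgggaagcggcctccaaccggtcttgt
AGGTCA occurred in 16.3% of all 32851 promoters of this length, CACGTG in 7.15% and TGATGNAA in 3.97%, while DR1, a pair of AGGTCA units spaced by a single base, occurred in 13 (0.0396%). In the promoters of the genes tested the shares were 13.2%, 9.67% and 2.40%. AGGTCA was found in 13.1% of the promoters of genes called higher, 5 of 23 matched mitochondrial beta-oxidation promoters (21.7%) and 8 of 35 lipid droplet promoters (22.9%), but in 5 of 41 peroxisomal promoters (12.2%) and none of the 12 promoters matched to the largest rises. CACGTG was found in 10.8% of the promoters of genes called higher, 9.73% of those called lower, 24 of 101 lysosome promoters (23.8%) and 17 of 96 promoters of ribosome biogenesis genes (17.7%). TGATGNAA was found in 2.57% of the promoters of genes called higher, 2.62% of those called lower, 13 of 46 promoters of the Atf4 list (28.3%) and 2 of the 12 promoters of the largest rises. A match describes the letters alone.

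Lipid synthesis genes were called in both directions, and Tsc1 L-/- replicate 3 set the values of Fasn and Srebf1, which were not called. In lipogenesis, elongation and desaturation, 8 of the 31 tested members were called higher in Cpt2 L-/- livers and 11 lower, with a median of -0.40, against 8 higher, 10 lower and a median of -0.22 without that library, and the higher members numbered 5 without Tsc1 L-/- replicate 4. Fasn, the fatty acid synthase, was at 53.2, 61.3, 74.3 and 60.8 CPM in the Cpt2 L-/- libraries and 48.6, 42.7, 263.99 and 76.96 CPM in the Tsc1 L-/- libraries, with a log2 fold change of -0.79 (adjusted p = 0.239) that became 0.15 without replicate 3. Srebf1 went from -1.64 (adjusted p = 0.087) to 0.04 in the same way, and passed the test without Tsc1 L-/- replicate 2 (adjusted p = 0.0352). It also passed with DESeq2 (adjusted p = 0.0398) and in the fit of all 24 libraries (adjusted p = 0.043). Thrsp was lower in Cpt2 L-/- livers with that library (-5.08) and without it (-1.28, adjusted p = 0.00661). Its call was lost in a fit of the 8 compared libraries (adjusted p = 0.0737), with the replicate block (adjusted p = 0.0705) and with limma (adjusted p = 0.0741 and 0.0693). The liver pyruvate kinase Pklr, at 30.4, 31.5, 37.7 and 37.6 CPM against 95.5, 122, 502 and 193 CPM, was lower in both cases as well (-2.73 and -2.0004). The elongases moved in opposite directions. Elovl3 was higher in Cpt2 L-/- livers (81.5, 94.4, 147 and 107 against 7.91, 8.71, 4.77 and 31.01 CPM, 3.03 ± 0.48, adjusted p = 0.000285, and 3.91 without Tsc1 L-/- replicate 4), and Elovl6 was lower (9.25, 14.7, 16.5 and 11.2 against 38.8, 24.3, 78.5 and 35.9 CPM, -1.78 ± 0.37, adjusted p = 0.00186).

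Genes of cholesterol synthesis and uptake included no member called higher (0 at an unadjusted p under 0.05 in edgeR, and 0 with DESeq2 and limma) and 7 of 28 called lower in Cpt2 L-/- livers (median -0.59, and -0.27 without Tsc1 L-/- replicate 3). Fdps, which makes farnesyl diphosphate, was at 27.3, 27.2, 32.2 and 27.8 CPM in the Cpt2 L-/- libraries and 59.5, 55.6, 329.5 and 88.1 CPM in the Tsc1 L-/- libraries, and lost its call without Tsc1 L-/- replicate 3 (-1.24, adjusted p = 0.105), Cpt2 L-/- replicate 1 (adjusted p = 0.0523) or Cpt2 L-/- replicate 4 (adjusted p = 0.0534). Genes of bile acid synthesis and transport were lower in Cpt2 L-/- livers for 16 of 26 members and higher for 3 (median -0.81). Cyp7a1, the rate-limiting enzyme of bile acid synthesis, was at 8.88, 13.1, 5.27 and 14.02 CPM against 214, 706, 102 and 136 CPM, 28.1-fold lower (log2 fold change -4.81, standard error 0.73, adjusted p = 0.000216). Without Tsc1 L-/- replicate 2 its log2 fold change was -3.87. Control livers had 261 ± 155 CPM (SD, n = 4). Abcb11, the bile salt export pump, was at 67.7, 38.6, 81.6 and 63.6 CPM against 393, 166, 574 and 275 CPM (-2.48 ± 0.31, adjusted p = 2.39e-05). The libraries of the 2 genotypes overlapped for neither gene.

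In glucose handling 18 of 44 members were lower and 6 higher (median -0.22). G6pc, the enzyme that releases glucose from hepatocytes, was at 81.3, 129.6, 129 and 84.2 CPM in the Cpt2 L-/- libraries and 381, 406, 604 and 506 CPM in the Tsc1 L-/- libraries (log2 fold change -2.16, standard error 0.32, adjusted p = 8.05e-05), without overlap. Pck1, which commits oxaloacetate to gluconeogenesis, overlapped between the genotypes (-0.17 ± 0.16, adjusted p = 0.441). Among 63 genes of the urea cycle and amino acid catabolism 32 were lower and 2 higher (median -0.51), and the higher ones numbered 1 without Cpt2 L-/- replicate 1, 2 or 4 or Tsc1 L-/- replicate 3 or 4. The serine dehydratase Sds was at 23.2, 63.5, 59.2 and 17.5 CPM against 186, 286, 165 and 99.7 CPM (-2.17 ± 0.61, adjusted p = 0.0128, and 0.052 in the fit of all 24 libraries), and Ass1, the argininosuccinate synthase of the urea cycle, at 2074, 2480.4, 2033 and 2569 CPM against 6079.7, 6928, 4844 and 4078 CPM (-1.26 ± 0.27, adjusted p = 0.00124). Glutamine synthetase (Glul) was at 325, 272, 332 and 239 CPM against 717, 991, 1295 and 1288 CPM (-1.88 ± 0.20, adjusted p = 2.09e-06). Its log2 fold change in DKO over Tsc1 L-/- livers was -0.28 (adjusted p = 0.286). Control livers, at 1442 ± 300.3 CPM (SD, n = 4), lay nearer the Tsc1 L-/- level for Glul. Cps1, the entry enzyme of the urea cycle, was not called (-0.07 ± 0.34, adjusted p = 0.901).

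Stress-responsive genes did not move as a block. Of the 42 tested members of the Atf4 and amino acid response, 12 were higher in Cpt2 L-/- livers and 6 lower (median 0.27). The stress transcription factor Atf3 was at 35.2, 22.8, 26.9 and 53.7 CPM in the Cpt2 L-/- libraries and 6.74, 0.415, 1.998 and 3.16 CPM in the Tsc1 L-/- libraries (3.47 ± 0.69, adjusted p = 0.00156), and its log2 fold change was 4.20 without Tsc1 L-/- replicate 1. The cystine transporter Slc7a11 was at 0.9201, 0.761, 1.95 and 9.89 CPM and at the floor in Tsc1 L-/- livers, at least 17.5-fold higher. This bound was carried by Cpt2 L-/- replicate 4, without which it was 6.26-fold. Asns, the asparagine synthetase whose start region is printed above, went the other way, at 7.04, 7.61, 4.68 and 10.2 CPM against 59.5, 109, 8.76 and 27.6 CPM, with overlap at Tsc1 L-/- replicate 3 (-2.79 ± 0.68, adjusted p = 0.00574, and -2.11 without Tsc1 L-/- replicate 2). The hormone Fgf21 was at 61.9, 41.9, 37.8 and 65.6 CPM against 34.8, 8.64, 1.29 and 24.4 CPM, without overlap but short of the threshold (1.58 ± 0.66, adjusted p = 0.0795), and it passed without Tsc1 L-/- replicate 1 (adjusted p = 0.0298). Fgf21 also passed with DESeq2 (adjusted p = 0.0495) and with limma (adjusted p = 0.0221 and 0.0295). Gdf15, a stress-induced hormone, was higher (86.9, 62.98, 40.2 and 41.5 against 12.3, 6.64, 23.3 and 22.5 CPM, 1.84 ± 0.48, adjusted p = 0.00899). Over 34 secreted hepatokines 7 were higher and 11 lower (median -0.40), beside 18.0% and 19.0% of all genes tested. Of the 37 aminoacyl-tRNA synthetases 12 were higher and 4 lower, among the latter the mitochondrial Aars2 (-0.83 ± 0.12, adjusted p = 3.27e-05).

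Genes of the endoplasmic reticulum were lower in Cpt2 L-/- livers for 30 of 47 members and higher for 2 (median -0.63), the latter 1 when Cpt2 L-/- replicate 1 or 4 or Tsc1 L-/- replicate 2 or 4 was left out. The chaperone Hspa5 (BiP) was at 409, 302, 329 and 464 CPM in the Cpt2 L-/- libraries and 1103, 586, 617 and 555 CPM in the Tsc1 L-/- libraries (-0.93 ± 0.22, adjusted p = 0.00314), and the disulfide isomerase Pdia6 at 71.4, 57.1, 56.9 and 70.5 CPM against 370.3, 163, 467 and 243 CPM (-2.28 ± 0.26, adjusted p = 6.65e-06). Sdf2l1, a cofactor of BiP, was 6.68-fold lower. Control livers had 810.4 ± 226 CPM of Hspa5 and 239.7 ± 22.1 CPM of Pdia6 (SD, n = 4), both above the Cpt2 L-/- mean. Xbp1 was not called (0.09 ± 0.14, adjusted p = 0.665). In the contrast of DKO with Tsc1 L-/- livers 17 members were lower and 3 higher, with Hspa5 at -0.19 (adjusted p = 0.544) and Pdia6 at -1.13 (adjusted p = 0.00248). The call of Hspa5 was lost in the fit of all 24 libraries.

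Lysosomal genes differed mainly by higher levels in Tsc1 L-/- livers. Of 100 tested lysosomal genes 43 were lower in Cpt2 L-/- livers and 15 higher (median -0.26). Lamp1, an abundant lysosomal membrane protein, was at 428, 468, 443 and 512 CPM in the Cpt2 L-/- libraries and 1125, 886.19, 925 and 797 CPM in the Tsc1 L-/- libraries (-1.01 ± 0.13, adjusted p = 1.38e-05). Control livers had 622 ± 62.6 CPM of Lamp1 (SD, n = 4). Gpnmb, a glycoprotein of macrophages and stressed lysosomes, was higher in Cpt2 L-/- livers (25.8, 21.8, 10.7 and 23.3 against 2.39, 3.04, 0.902 and 4.05 CPM). The protease Ctsd was not called (0.06 ± 0.12, adjusted p = 0.757). Rragd, a Rag GTPase that recruits mTORC1 to lysosomes, was at 4.6004, 4.63, 4.68 and 5.36 CPM against 60.4, 48.9, 20.4 and 32.9 CPM, 8.42-fold lower (log2 fold change -3.07, standard error 0.26, adjusted p = 5.48e-07), with control at 1.95 ± 0.519 CPM (SD, n = 4). In the contrast of DKO with Tsc1 L-/- livers the log2 fold changes were 0.72 (adjusted p = 0.0268) for Rragd and -0.11 (adjusted p = 0.565) for Lamp1, and 30 lysosomal genes were higher and 15 lower. That contrast shares the Tsc1 L-/- libraries.

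Among 53 mTORC1 pathway components 16 were lower and 7 higher (median -0.17), and without Cpt2 L-/- replicate 3 or 4 the lower ones numbered 10. Rheb, the GTPase that the Tsc1 complex restrains, was higher in Cpt2 L-/- livers (71.2, 72.4, 57.03 and 58.9 against 47.3, 43.1, 45.7 and 45.95 CPM, 0.51 ± 0.10, adjusted p = 0.000436), and Tsc2, the partner of Tsc1, was not called (-0.28 ± 0.12, adjusted p = 0.0773) except without Cpt2 L-/- replicate 3 (adjusted p = 0.0279). In autophagy 11 of 51 were higher, 6 without Tsc1 L-/- replicate 3, and 10 lower, near the 18.0% and 19.0% of all genes tested. In the fit of all 24 libraries 5 were higher and 3 lower. The cargo receptor Sqstm1 was at 1840.0, 1334, 1401 and 2149 CPM against 1052, 695, 347 and 788 CPM (1.22 ± 0.26, adjusted p = 0.00142). Insulin signaling and FoxO target genes gave 6 higher and 2 lower of 33, the lower ones 5 without Tsc1 L-/- replicate 2, and the insulin receptor substrates Irs1 (-0.09 ± 0.25, adjusted p = 0.823) and Irs2 (0.32 ± 0.39, adjusted p = 0.568) were not called.

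Ribosome biogenesis genes were mostly higher in Cpt2 L-/- livers. Of 98 tested members 68 were called higher and 1 lower (median 0.51), the latter 2 without Cpt2 L-/- replicate 2. The nucleolar protein nucleolin (Ncl) was at 395, 431, 491 and 494 CPM in the Cpt2 L-/- libraries and 274, 225, 165 and 181 CPM in the Tsc1 L-/- libraries (1.10 ± 0.15, adjusted p = 2.6e-05), Nop58 of the box C/D particles at 42.9, 32.9, 37.3 and 36.5 CPM against 16.9, 13.7, 14.3 and 17.2 CPM, and Rrp12 at 37.6, 29.1, 49.8 and 54.3 CPM against 16.4, 12.7, 10.4 and 13.7 CPM. Relative to control, the list's median was 0.49 in Cpt2 L-/- and -0.07 in Tsc1 L-/- livers. Of the cytosolic ribosomal proteins, 9 of 84 were higher and 3 lower (median 0.16), and the higher ones numbered 23 without Cpt2 L-/- replicate 4 and 3 in the fit of all 24 libraries. Rps6 (-0.05 ± 0.15, adjusted p = 0.828) and Rplp0 (0.05 ± 0.14, adjusted p = 0.801) were not called. In the proteasome 14 of 49 were higher and 6 lower, the higher ones 9 without Cpt2 L-/- replicate 1 and 8 without Cpt2 L-/- replicate 4 or Tsc1 L-/- replicate 3. The regulatory subunits Psmd4 (1.46 ± 0.17, adjusted p = 4.22e-06) and Psmd11 (0.83 ± 0.15, adjusted p = 0.00027) were higher, and the immunoproteasome subunits Psmb8 (-1.05 ± 0.20, adjusted p = 0.000434) and Psmb10 (-1.18 ± 0.20, adjusted p = 0.000177) were lower.

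Nuclear-encoded genes of the respiratory chain were lower for 25 of 78 members and higher for 1 (median -0.27). The single higher call was lost without Cpt2 L-/- replicate 1 or 2 or Tsc1 L-/- replicate 1, 3 or 4. The lower count was 43 without Cpt2 L-/- replicate 2, 14 without replicate 3 and 13 without replicate 4 of the same genotype. In the fit of the 8 libraries alone it was 13 and in that of all 24 libraries 7. In the contrast of DKO with Tsc1 L-/- livers, within a single library set, 3 were higher and 3 lower (median -0.04), and Ndufa1 was at -0.23 (adjusted p = 0.155). Ndufa1 of complex I was lower (62.998, 74.8, 52.6 and 55.9 against 124, 112, 94.1 and 103 CPM, -0.82 ± 0.12, adjusted p = 4.3e-05). None of the 13 mitochondrially encoded genes was called (mt-Co1, 0.38 ± 0.21, adjusted p = 0.168), against 2 without Cpt2 L-/- replicate 1 and 1 without Tsc1 L-/- replicate 1. In edgeR 2 of them were higher at an unadjusted p under 0.05, DESeq2 called 0, and limma called 1 or 2, depending on the pseudocount. Among the mitochondrial carriers 11 of 44 were higher and 10 lower, beside 18.0% and 19.0% of all genes. The uncoupling protein Ucp3, known from muscle and induced by fatty acids, was at 3.36, 5.96, 4.26 and 5.25 CPM in the Cpt2 L-/- libraries and at the floor in Tsc1 L-/- livers, at least 24.3-fold higher, and Ucp2 was at 129.7, 130.1, 139 and 127 CPM against 49.97, 100.5, 71.97 and 81.4 CPM (0.79 ± 0.18, adjusted p = 0.00229).

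Drug-metabolizing enzymes were lower in Cpt2 L-/- livers for 21 of the 44 tested Cyp1, Cyp2 and Cyp3 genes and higher for 3 (median -0.74). Cyp2b10, a target of the xenobiotic receptor Car, was at 12.2, 2.03, 10.8 and 3.91 CPM in the Cpt2 L-/- libraries and 81.2, 115, 95.4 and 39.4 CPM in the Tsc1 L-/- libraries (-3.502 ± 0.62, adjusted p = 0.000721), with control at 5.61 ± 3.72 CPM (SD, n = 4). Cyp2c37 was at 56.1, 37.4, 75.4 and 57.3 CPM against 203, 776, 939 and 883 CPM, and the Cyp2c genes are close paralogs whose reads could be split. Cyp2e1 was not called (-0.01 ± 0.18, adjusted p = 0.986). Among glucuronosyl- and sulfotransferases 10 of 26 were lower and 5 higher (median -0.92), the higher ones 2 without Cpt2 L-/- replicate 1 and 3 without Cpt2 L-/- replicate 4 or Tsc1 L-/- replicate 3. Sult5a1 was at 7.41, 4.38, 2.31 and 4.92 CPM against 59.7, 84.9, 101 and 70.3 CPM. In the glutathione and Nrf2 list 13 of 52 were higher and 17 lower, beside 18.0% and 19.0% of all genes tested. The lower ones numbered 11 in the fit of 8 libraries. Gclc, the rate-limiting enzyme of glutathione synthesis, was higher (0.99 ± 0.19, adjusted p = 0.000609). It was not called in the fit of all 24 libraries (adjusted p = 0.0745). Gpx3, the secreted glutathione peroxidase, was at 12.1, 25.8, 10.7 and 11.3 CPM against 597, 365, 146 and 187 CPM, 21.7-fold lower (log2 fold change -4.44, standard error 0.47, adjusted p = 8.42e-06), beside 14.6 ± 2.798 CPM (SD, n = 4) in control livers and a log2 fold change of 0.69 (adjusted p = 0.215) in DKO over Tsc1 L-/- livers.

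The acute-phase list had 12 of 34 members lower and none higher (median -0.60), with 1 higher without Cpt2 L-/- replicate 1 or Tsc1 L-/- replicate 1, 2 or 3, 1 at an unadjusted p under 0.05 in edgeR, and 1 called by DESeq2 and by limma. Saa4 was lower (13.3, 14.8, 19.3 and 16.9 against 86.6, 137, 592 and 130.4 CPM, -3.88 ± 0.54, adjusted p = 9.53e-05, and -2.88 without Tsc1 L-/- replicate 3), while the inducible Saa1 ranged widely in both genotypes, from 18.6 to 1068 CPM and from 22.7 to 975 CPM. Of the apolipoprotein genes 4 of 21 were higher, near the 18.0% of all genes tested, and 7 lower (19.0% of all genes). Apoa4, carried on triglyceride-rich particles, was higher (11628, 12931, 7297 and 6480.1 against 1718, 4231, 517 and 3314 CPM, 1.97 ± 0.57, adjusted p = 0.0142), as was Mttp, which loads lipid onto apolipoprotein B (1.06 ± 0.15, adjusted p = 3.27e-05). Apom was lower (104, 105, 96.005 and 115 against 323, 359, 249.17 and 271 CPM, -1.52 ± 0.16, adjusted p = 2.38e-06), and Apob was not called (-0.07 ± 0.19, adjusted p = 0.806). In the growth hormone and sex-biased list 5 of 41 were higher, 3 without Cpt2 L-/- replicate 1, and 9 lower. Cux2, a repressor usually higher in female liver, was at 0.9201, 0.127, 0.8292 and 0.447 CPM against 17.8, 36.1, 0.967 and 46.6 CPM, where Tsc1 L-/- replicate 3 lay near the Cpt2 L-/- values. The clock list gave 3 higher and 7 lower of 25, and without Cpt2 L-/- replicate 1 or 4 the lower ones numbered 2, without Tsc1 L-/- replicate 2 they numbered 3, and without Tsc1 L-/- replicate 3 they numbered 4 beside 5 higher.

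Genes of proliferation and of epithelial junctions were read against the shares of all genes tested that were called, 18.0% higher and 19.0% lower. Of 40 tested cell cycle genes 4 were higher and 9 lower, the higher ones 2 without Cpt2 L-/- replicate 1 or 4 or Tsc1 L-/- replicate 2 or 3, and Mki67, the marker of cycling cells, was not called (0.22 ± 0.34, adjusted p = 0.656). Of 28 p53 targets 2 were higher, 1 without Cpt2 L-/- replicate 1, 2 or 4 or Tsc1 L-/- replicate 2 or 4, and 6 lower, the lower ones 3 without Cpt2 L-/- replicate 2, 3 or 4, and Cdkn1a, which arrests the cell cycle, did not pass the test (132, 72.5, 61.2 and 113 against 37.03, 31.3, 7.02 and 31.2 CPM, 1.83 ± 0.69, adjusted p = 0.055). Cdkn1a passed with DESeq2, in the fit of 8 libraries, with the replicate block and with limma (adjusted p = 0.0208 to 0.0434). Of 33 tight junction and epithelial genes 8 were higher and 7 lower, the lower ones 4 without Cpt2 L-/- replicate 3. E-cadherin (Cdh1) was lower in Cpt2 L-/- livers (24.6, 23.5, 20.3 and 18.3 against 121, 60.4, 81.2 and 66.1 CPM, -1.93 ± 0.24, adjusted p = 1.62e-05).

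Some genes called in the direct comparison did not pass the test within the library set that holds Tsc1 L-/- and DKO livers, and the difference between the 2 contrasts was not tested. Beside those given above, further genes were called between Cpt2 L-/- and Tsc1 L-/- livers but did not pass the test in DKO over Tsc1 L-/- livers. The log2 fold changes of some of them in the latter were -0.14 for Aars2, -0.10 for Acad9, -1.01 for Asns, -0.72 for Bdh2, 0.48 for Cpt1a, -0.77 for Cyp2b10, 1.04 for Cyp4a10, 1.21 for Cyp4a14, -0.41 for Fdps, 0.63 for Hist1h1c, 0.31 for Ppara, 0.71 for Slc16a6, 2.39 for Slc7a11, -0.39 for Stab2 and -0.62 for Sult5a1, with adjusted p from 0.052 to 0.668 for the genes listed here. Some lists had medians near 0 or of the other sign in that contrast. Over all genes tested it had 16.9% higher and 15.2% lower. Among 53 mTORC1 pathway components 14 were higher and 8 lower, in the glutathione and Nrf2 list of 52 genes 18 were higher and 10 lower (median 0.24), and among nuclear receptors 2 were higher and 15 lower (median -0.35). Cytosolic ribosomal proteins had the same sign in both contrasts. In DKO over Tsc1 L-/- livers 57 of their 84 members were higher and 0 lower (median 0.49), beside a median of 0.16 in the direct comparison. DKO livers lack Tsc1 as well as Cpt2, so the contrasts differ in genotype as well as in library set.

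**Figure D5:**
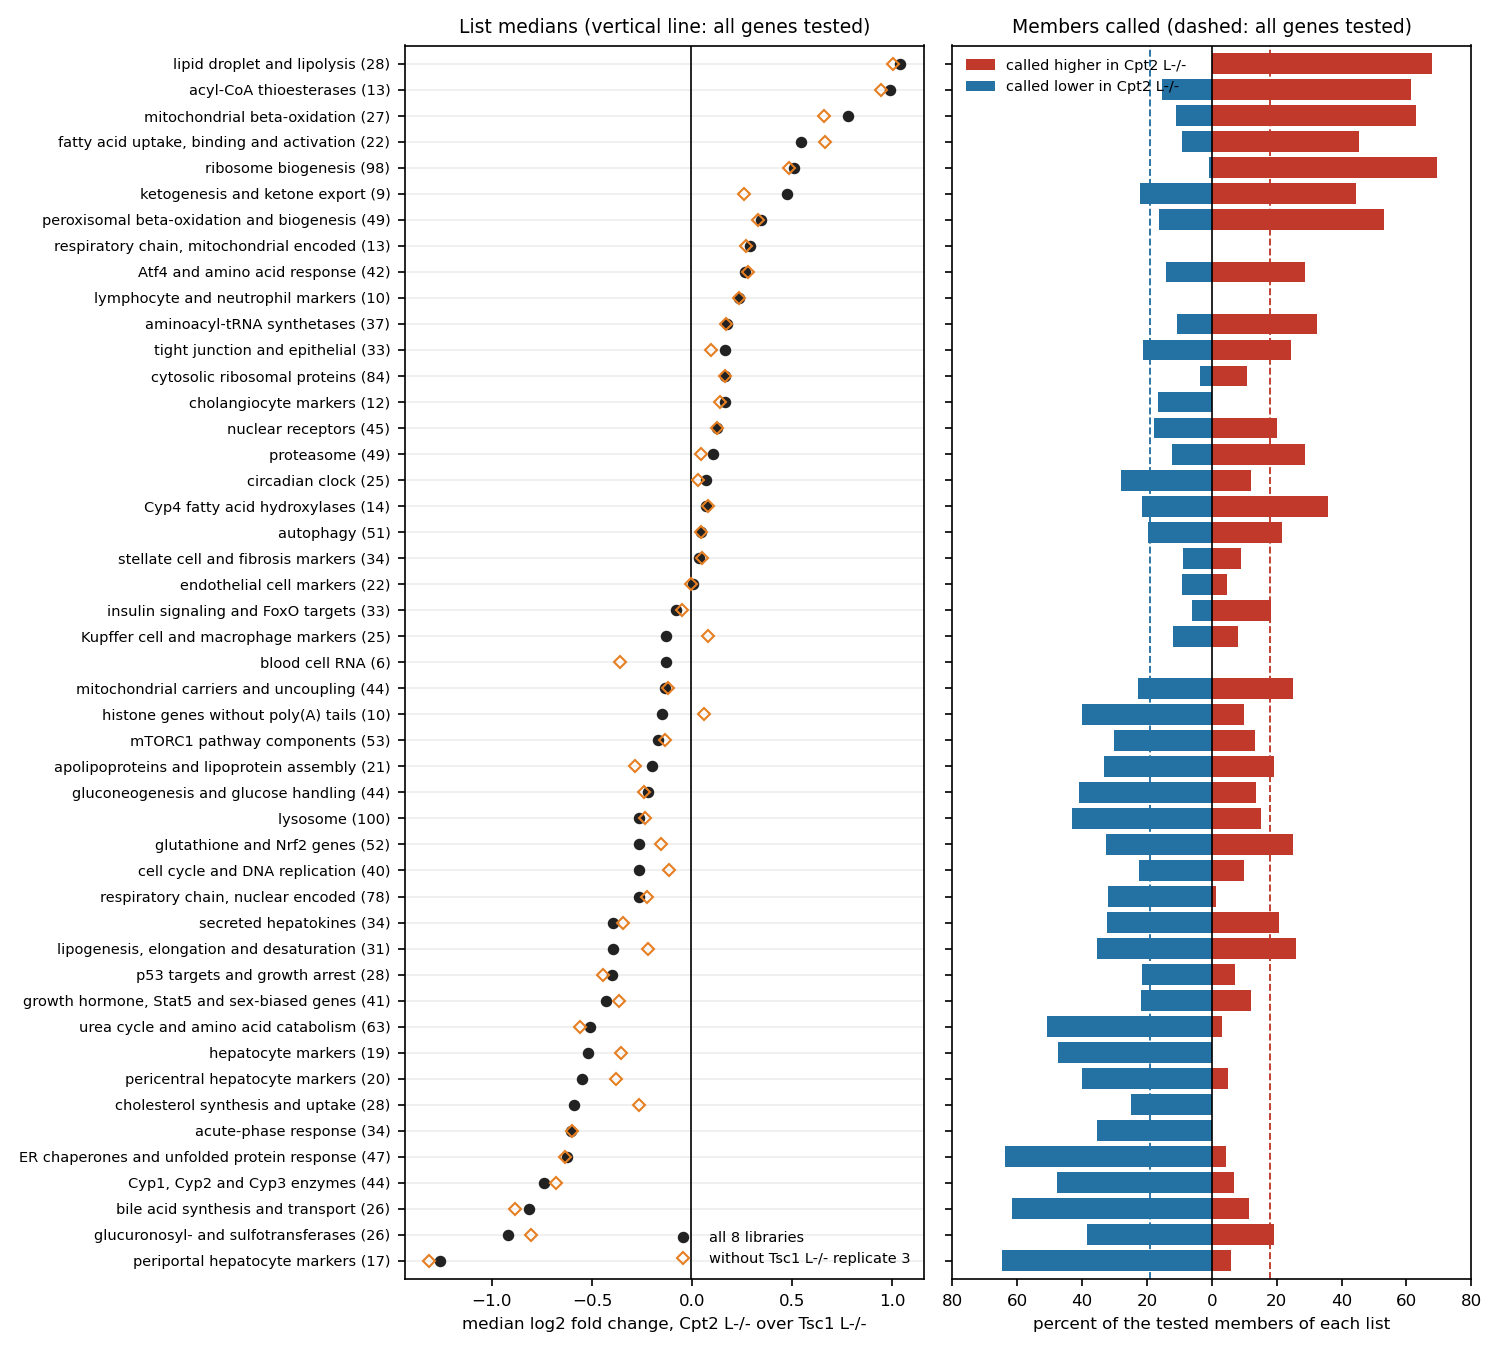
The left panel gives, for each of the 47 gene lists, the median log2 fold change of Cpt2 L-/- over Tsc1 L-/- livers, with and without Tsc1 L-/- replicate 3. The right panel gives the percent of the tested members of each list that were called higher or lower in Cpt2 L-/- livers. The background shares over all tested genes were 18.0% higher and 19.0% lower. Lipid droplet genes have the highest median (1.04) and periportal hepatocyte markers the lowest (-1.26).

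Markers of the cell types of the liver were read beside these lists and beside the 18.0% higher and 19.0% lower of all genes tested. Of 19 tested hepatocyte markers 9 were lower and none higher (0 at an unadjusted p under 0.05 in edgeR, 0 with DESeq2 and limma), with summed levels of 57222 to 83347 CPM in Cpt2 L-/- and 71881 to 107230.0 CPM in Tsc1 L-/- livers. Of 17 periportal markers 11 were lower and 1 higher, and of 20 pericentral markers 8 were lower and 1 higher, the latter 2 without Cpt2 L-/- replicate 1 or Tsc1 L-/- replicate 1. The periportal Gls2 was at 118, 176, 139 and 136 CPM in the Cpt2 L-/- libraries and 560.0, 420.5, 536 and 308 CPM in the Tsc1 L-/- libraries (-1.68 ± 0.27, adjusted p = 0.000136). Kupffer cell and macrophage markers summed to 534 to 813 CPM and 664 to 1125 CPM, with 2 of 25 higher and 3 lower, and Clec4f, which marks Kupffer cells, was not called (-0.28 ± 0.19, adjusted p = 0.278). Stellate cell markers summed to 723 to 897 CPM and 610.4 to 962 CPM, with 3 of 34 called in each direction and 1 lower without Cpt2 L-/- replicate 1 or 3. Endothelial markers gave 1 of 22 higher, 4 without Cpt2 L-/- replicate 2, and 2 lower, among them Stab2 of the sinusoids (-0.95 ± 0.20, adjusted p = 0.00104). None of the 10 tested lymphocyte and neutrophil markers and none of the 6 tested blood cell genes was called (0 at an unadjusted p under 0.05 in edgeR, 0 with DESeq2 and limma), and Ly6g was at 0 in all 8 libraries. Of 12 cholangiocyte markers 2 were lower and 0 higher, against 1 higher without Cpt2 L-/- replicate 2 or Tsc1 L-/- replicate 3, 1 at an unadjusted p under 0.05 and 0 with DESeq2 and limma. Of 10 tested histone genes without poly(A) tails 4 were lower, including those of the library sets, and Hist1h1c was higher (1.15 ± 0.29, adjusted p = 0.00558). Mitochondrially encoded genes took 5.45% to 8.06% of the counts in Cpt2 L-/- and 4.91% to 6.82% in Tsc1 L-/- libraries. The part of cell composition and RNA quality in the gene differences was not tested.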

How the data were processed

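Livers were profiled by stranded poly(A) RNA-seq (single 75-base reads), and 16 libraries of 4 genotypes, 4 per genotype, entered the fit. The authors deposited raw read counts and FPKM per gene. The submitters' processing notes name Bowtie 0.12.2, TopHat, STAR 2.5, STAR-Fusion, HTSeq 0.6.1, DESeq2, edgeR, mm8 and mm9 without their roles, and gene coordinates in the deposited table are those of GRCm38. Counts were tested with edgeR 4.0.16 in R 4.3.3 (TMM scaling, filterByExpr with a minimum count of 10 and total of 15, robust quasi-likelihood fit, contrast Cpt2 L-/- minus Tsc1 L-/-), two-sided, with Benjamini-Hochberg adjustment over 13641 genes and a threshold of 0.05. Standard errors are the log2 fold change divided by the square root of F. Alternatives used DESeq2 1.42.0 and, for the deposited FPKM values, limma 3.58.1. A group with at most 3 counts in every library was at the floor and gave only a lower bound of the fold.

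Named genes were the anchors of 47 gene lists, up to 3 members of each list with the largest rise and fall among called genes with a mean of at least 1 CPM, the 12 largest rises and falls over all genes (called, without overlap, mean of at least 5 CPM), and genes near 0 in a single group. Some genes that this rule covers are not reported here. The members and lists were chosen with earlier results of these data known. Alternatives covered size factors, the filter, the tool, the libraries in the fit, the replicate block, the unit, the fold threshold and each library left out. The test was run on simulated data with few changed genes and no library sets, where 3 of 121 calls (2.48%) were false. That share does not carry over to these data, in which many more genes were called. Figures were drawn with matplotlib 3.10.9.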

Additional observations from a re-analysis of the deposited data

Results flagged for a closer look

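In groups of 4 libraries, a library was noted where its gap to the nearest other library, as a share of the group's range, exceeded Dixon's critical value for 4 values. This happened for 46 of 552 groups of CPM values (8.33%), in 43 genes, and Tsc1 L-/- replicate 3 accounted for 15 of them. Chance gives about 1 in 20 for independent, normally distributed values. CPM values of many genes move together and many of these genes were named for large differences, so the excess was not tested. Over all genes with a mean of at least 1 CPM, each Cpt2 L-/- library stood apart for 0.889% to 1.42% of genes and each Tsc1 L-/- library for 0.592% to 2.46%.

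Among the Tsc1 L-/- libraries the values were as follows. Replicate 3 was the highest for Acad9 (41.3 CPM, others 35.6 to 36.5), Atg4c (20.04 CPM, others 15.5 to 15.7), Cyp2c29 (1481 CPM, others 199 to 261), Cyp2c70 (315 CPM, others 16.1 to 26.6), Dbp (74.6 CPM, others 56.6 to 59.6), Dsg1c (52.97 CPM, others 11.6 to 15.5), Fasn (263.99 CPM, others 42.7 to 76.96), Fdps (329.5 CPM, others 55.6 to 88.1), Hsd3b5 (3.54 CPM, others 0.0613 to 0.415), Onecut1 (53.03 CPM, others 4.77 to 9.43), Pop5 (31.4 CPM, others 25.6 to 25.8), Saa4 (592 CPM, others 86.6 to 137), Srebf1 (338 CPM, others 23.8 to 41.5) and Thrsp (565 CPM, others 7.54 to 15.1), and the lowest for Psmd4 (65.3 CPM, others 104 to 110.2). Replicate 1 was the highest for Col5a2 (202 CPM, others 22.7 to 47.1), Hspa5 (1103 CPM, others 555 to 617), Oxct1 (11.7 CPM, others 3.99 to 5.15), Pdpk1 (71.8 CPM, others 55.7 to 58.4) and Trib3 (244 CPM, others 17.3 to 35.6). Replicate 2 was the highest for Por (1006 CPM, others 657 to 710.1), Ppp1r3c (103 CPM, others 16.6 to 25.997), Saa1 (975 CPM, others 22.7 to 179), Saa2 (711 CPM, others 9.99 to 55.99), Sesn1 (63.4 CPM, others 18.8 to 21.6) and Sult1d1 (572 CPM, others 154 to 223), and the lowest for Ugt1a1 (17.6 CPM, others 25.6 to 26.9). Replicate 4 was the highest for Elovl3 (31.01 CPM, others 4.77 to 8.71).

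Among the Cpt2 L-/- libraries the values were as follows. Replicate 1 was the lowest for Cpt1a (1272 CPM, others 1726 to 1813). Replicate 2 was the highest for Gpx3 (25.8 CPM, others 10.7 to 12.1) and Mmp2 (5.64 CPM, others 2.55 to 2.71), and the lowest for Fcgr2b (22.2 CPM, others 36.4 to 39.1) and Pecam1 (21.4 CPM, others 30.4 to 30.6). Replicate 3 was the highest for Fdps (32.2 CPM, others 27.2 to 27.8), Foxo4 (32.9 CPM, others 25.9 to 26.8), Lipg (79.7 CPM, others 26.5 to 35.4) and Nr0b2 (9.36 CPM, others 0.866 to 1.84), and the lowest for Cldn1 (22.5 CPM, others 39.5 to 43.01) and Cyp4f16 (1.78 CPM, others 3.74 to 3.95). Replicate 4 was the highest for Pparg (27.1 CPM, others 21.4 to 22.01), Rragd (5.36 CPM, others 4.6004 to 4.68), Saa1 (1068 CPM, others 18.6 to 148), Saa2 (467 CPM, others 7.05 to 43.8), Slc16a1 (118 CPM, others 87.3 to 90.3) and Slc7a11 (9.89 CPM, others 0.761 to 1.95), and the lowest for Gabarapl1 (445 CPM, others 478 to 481).

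Explanations for these values were not tested.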

How the results depend on the processing

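The 5045 genes called (2450 higher and 2595 lower in Cpt2 L-/- livers) became 5036 with median-of-ratios size factors, 4652 without the filter on low counts, 5319 with DESeq2, 4185 in a fit of the 8 compared libraries, 3618 in a fit of all 24 libraries, and 4675 and 4670 with limma on log2(FPKM + 1) and log2(FPKM + 0.1). Leaving out each library in turn gave 4326 to 4911 genes, with 2111 to 2402 higher and 2174 to 2509 lower. With a change of 2-fold or more required as well, there remained 1845 genes, 781 higher and 1064 lower, and the sums over the gene lists went from 348 to 139 higher and from 426 to 204 lower. Of the 307 named genes 251 were called, and 204 of these kept their call and direction in every alternative except the fold threshold. No named gene that was called reversed its direction in these alternatives.

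The replicate numbers did not pair the libraries: same-numbered Cpt2 L-/- and Tsc1 L-/- libraries had correlations of their deviations from the group means of -0.17, 0.12, 0.10 and -0.04. With the replicate number as a block, 4820 genes were called, 2345 higher and 2475 lower.

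Counts of called members of several lists moved by more than 1.5 times with the libraries in the fit. With all 24 libraries, the higher members fell to 2 for ketogenesis, 5 for lipogenesis, 1 for bile acids, 3 for glucose handling, 7 for aminoacyl-tRNA synthetases, 9 for lysosomes, 6 for the proteasome, 2 for glucuronosyl- and sulfotransferases, 2 for the cell cycle and 4 for tight junctions, and the lower ones to 10 for mTORC1 components, 3 for the clock, 4 for nuclear receptors, 4 for tight junctions and 1 for stellate cells. With the 8 compared libraries, the higher members of the autophagy list numbered 7, and the lower ones 6 for autophagy, 10 for mTORC1 components, 4 for the clock and 4 for nuclear receptors. With limma the lower nuclear receptors and clock genes numbered 4 each. The cause was not tested.

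The 4 libraries of a group and their depth limit what could be seen. In simulated data 4 of 50 genes changed by 0.5 on the log2 scale were recovered, 26 of 49 changed by 1, 43 of 47 changed by 2 and 45 of 48 changed by 3. These were few of the 13401 genes simulated, whereas 5045 genes were called in the data. Recovery at a fixed adjusted p depends on the share of changed genes. The simulation also held no library sets and no library that stood apart, so it does not give the detection limit of these data. The library sets described in the report coincide with the genotypes compared and cannot be told apart from them.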
